A study of Arabidopsis thaliana with 6 samples.

Results

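The EXORDIUM genes of Arabidopsis thaliana followed here are EXORDIUM itself (EXO), PHI-1 (also named EXL1), EXL2, EXL3, EXL4 and EXL5, measured in 6 mRNA libraries of seedlings. They were taken by locus identifier, and they are 6 of the 32948 genes in the deposited table. The groups were cnd1-3, a mutant line, and Col-0, the wild type, with 3 libraries each, in a study whose title is about CND1 and genome stability in nuclei and chloroplasts. The labels give no treatment, age or growth condition, no description of the cnd1-3 allele, and no word on whether each library is a separate batch of plants. Spreads and tests therefore measure variation between these libraries, which may be technical. The family was chosen by its FPKM (reads per kilobase of gene, scaled to the reads assigned in the library) in cnd1-3 against Col-0, already known when it was proposed, PHI-1 being among the larger rises. Its differences between the genotypes are given as a description, and no test is read from them.

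EXORDIUM proteins are secreted into the cell wall space of plants. EXO was found as a gene that responds to brassinosteroids, the steroid hormones that drive cell expansion, and plants without it make smaller leaves and roots and respond less to the hormone. PHI-1 is named after a tobacco gene that was induced when phosphate was given back to starved cells, and in Arabidopsis the gene is known for a role in growth under low carbon supply. EXL2 to EXL5 are named for their similarity to EXO, and their own roles are less well described.

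All 6 members consist of 1 exon in the TAIR10.1 annotation, and none overlaps another annotated gene. EXO (AT4G08950) lies on chromosome 4 from 5740219 to 5741591, PHI-1 (AT1G35140) on chromosome 1 from 12851983 to 12853235, and EXL5 (AT2G17230) on chromosome 2 from 7494536 to 7496292. The other members lie apart from each other on chromosome 5: EXL4 (AT5G09440) from 2938193 to 2939715, EXL3 (AT5G51550) from 20939363 to 20940895, and EXL2 (AT5G64260) from 25703649 to 25705339. Their coding sequences are 837 (EXL4) to 1092 (EXL5) bases long. In an alignment of the 6 coding sequences, 203 of 791 columns without a gap, 25.7%, hold the same base in every member. The stretch of 45 bases richest in such columns is shown for each member, because it shows where the members are most alike. Capitals mark the 23 bases that all 6 share, and each is read 5′ to 3′ on the coding strand of the RefSeq TAIR10.1 genome.
EXO, chr4:5740925-5740969, plus strand: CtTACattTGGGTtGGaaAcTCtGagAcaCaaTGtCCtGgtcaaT
PHI-1, chr1:12852621-12852665, plus strand: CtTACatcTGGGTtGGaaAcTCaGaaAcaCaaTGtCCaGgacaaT
EXL2, chr5:25704500-25704544, plus strand: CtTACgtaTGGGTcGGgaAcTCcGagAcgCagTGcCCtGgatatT
EXL4, chr5:2938872-2938916, plus strand: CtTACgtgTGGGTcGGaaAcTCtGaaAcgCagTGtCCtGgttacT
EXL3, chr5:20940152-20940196, minus strand: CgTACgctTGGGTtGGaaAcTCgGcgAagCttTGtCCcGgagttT
EXL5, chr2:7495260-7495304, minus strand: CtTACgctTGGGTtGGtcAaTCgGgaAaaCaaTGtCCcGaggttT

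The members fell into 3 pairs of closest relatives by coding sequence. EXL2 and EXL4 were identical at 81.3% of aligned coding bases, EXO and PHI-1 at 70.9%, and EXL3 and EXL5 at 67.5%. Every other pair lay between 59.6% and 67.4%. The longest run of bases that any pair shared over its whole exons was 24, between EXL2 and EXL4, against a read length of 150 bases.

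Depth lay between 22125814 and 30455907 reads assigned to genes per library, recovered from the deposited FPKM. Markers of the shoot were abundant as a sum, at 26540 to 28400 summed FPKM in cnd1-3 and 25790 to 28990 in Col-0 over 10 genes. Most of this sum came from RBCS1A, at 22260 to 23730 FPKM in cnd1-3 and 19460 to 23310 in Col-0. The shoot genes FAMA, TMM and MYB60 reached at most 2.40, 1.60 and 0.78 FPKM. Markers of the root were almost absent: 10 genes summed to 2.52 to 2.58 FPKM in cnd1-3 and 2.90 to 4.30 in Col-0, nearly all of it from SHR. RHD6, EXPA7, EXPA18 and PER64 were listed at 0 in every library and the root gene PYK10 reached at most 0.025. GL1 and STM, shoot genes of hair precursors and of the meristem, were also at 0. The libraries are labelled as seedlings, and these values show little RNA of roots in either genotype. In bulk tissue, more cells of a type and more RNA per cell cannot be told apart.

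The EXORDIUM genes were higher in cnd1-3 in 5 of 6 cases. EXO, PHI-1, EXL2, EXL3 and EXL5 each had all 3 cnd1-3 libraries above all 3 Col-0 libraries, and the EXL4 values of the genotypes overlapped. Over all tested genes the groups were apart in 33.9%, and in 12.3% with cnd1-3 above, and since the family was chosen on this contrast nothing is read from its count. Summed over the 6 members, the family stood at 267, 154 and 180 FPKM in cnd1-3, against 72.1, 73.5 and 66.3 FPKM in Col-0. The Col-0 sums lie within a narrow band, and the cnd1-3 sums are both higher and wider apart. By mean, that is 200.2 ± 59.0 FPKM in cnd1-3 and 70.6 ± 3.8 FPKM in Col-0 (SD, n = 3 each).

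**Figure D1:**
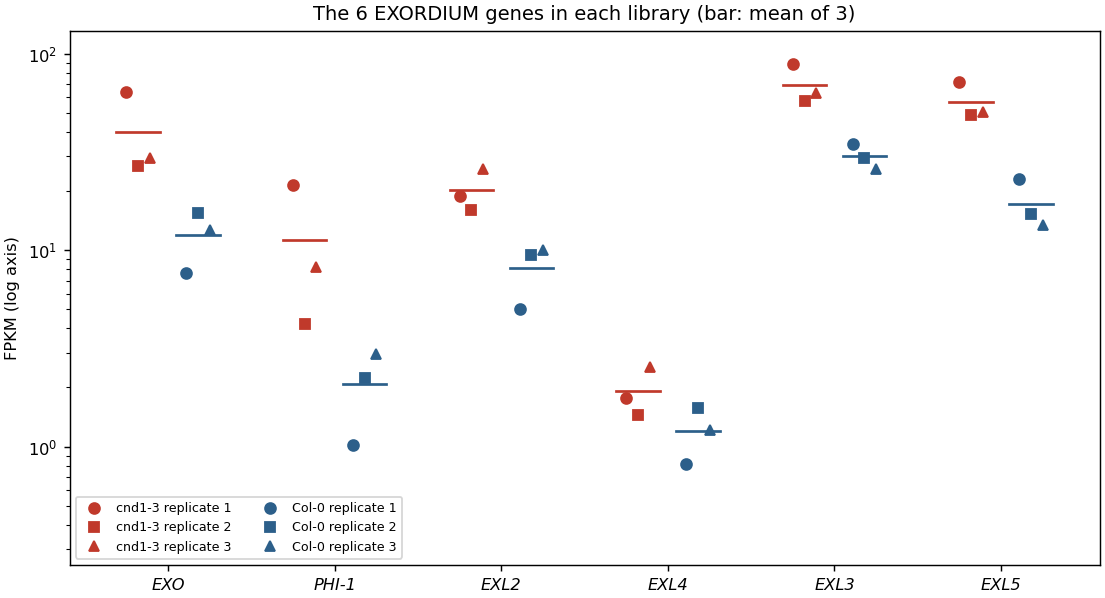
FPKM of each EXORDIUM gene (log axis) in the 3 cnd1-3 libraries (red) and the 3 Col-0 libraries (blue), with marker shape for the replicate number and a bar at the mean of 3. In 5 genes the red points all lie above the blue ones, and in EXL4 the lowest cnd1-3 library, at 1.45 FPKM, lies under the highest Col-0 library, at 1.57.

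EXO, the founding member, had 64.1, 26.8 and 29.3 FPKM in cnd1-3 replicates 1 to 3, against 7.68, 15.4 and 12.7 FPKM in Col-0 replicates 1 to 3. Replicate 1 of cnd1-3 stands far above the other cnd1-3 libraries, and replicate 1 of Col-0 is the lowest Col-0 library. The means were 40.1 ± 20.8 FPKM in cnd1-3 and 11.9 ± 3.92 FPKM in Col-0 (SD, n = 3 each), 3.36 times as high in the mutant. On the log2 scale of FPKM plus 0.5 the difference was 1.64 (SE 0.34).

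PHI-1 had 21.3, 4.18 and 8.19 FPKM in cnd1-3, against 1.02, 2.24 and 2.95 FPKM in Col-0. It had the largest ratio of means in the family, 5.42, from 11.2 ± 8.97 FPKM in cnd1-3 and 2.07 ± 0.974 FPKM in Col-0 (SD, n = 3 each), and the largest spread. The lowest cnd1-3 library was 1.42 times the highest Col-0 library, the narrowest gap among the 5 members whose groups did not overlap. Its log2 difference was 1.98 (SE 0.51).

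EXL5 had 72.0, 48.5 and 50.6 FPKM in cnd1-3, against 22.9, 15.2 and 13.4 FPKM in Col-0. It showed the widest gap of the family, with its lowest cnd1-3 library 2.11 times its highest Col-0 library. The means were 57.0 ± 13.1 FPKM in cnd1-3 and 17.2 ± 5.07 FPKM in Col-0 (SD, n = 3 each), a ratio of 3.32 and a log2 difference of 1.72 (SE 0.21). PHI-1 had the larger fold, and EXL5 the larger difference in level per length.

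EXL3, the relative of EXL5, had 88.6, 57.3 and 63.0 FPKM in cnd1-3, against 34.6, 29.6 and 26.0 FPKM in Col-0. It was the most abundant member in both genotypes, and its log2 difference of 1.18 (SE 0.16) was the smallest among the 5 that did not overlap. EXL2 had 18.8, 16.1 and 26.0 FPKM in cnd1-3, against 4.99, 9.44 and 10.0 FPKM in Col-0, with a log2 difference of 1.29 (SE 0.25). In EXL2 the highest cnd1-3 library was replicate 3, not replicate 1.

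EXL4, the relative of EXL2, was the weakest member, with 1.77, 1.45 and 2.53 FPKM in cnd1-3, against 0.819, 1.57 and 1.21 FPKM in Col-0. The means were 1.92 ± 0.555 FPKM in cnd1-3 and 1.20 ± 0.377 FPKM in Col-0 (SD, n = 3 each), from 49 to 89 reads per library in cnd1-3 and 38 to 63 in Col-0. Its log2 difference was 0.51 (SE 0.22), which the pseudocount of 0.5 draws toward 0 at this level.

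A linear model across genes (limma) was fitted to the 17096 genes with a mean of at least 0.5 FPKM, and a gene was called at a Benjamini-Hochberg adjusted p under 0.05. It called 598 genes higher in cnd1-3, a background of 3.5%, and 1298 lower. Lower calls made up 68.5% of all calls, against 54.3% with median-ratio scaling and 50.5% with quantile normalization. In 2111 genes, or 12.3%, all cnd1-3 libraries lay above all Col-0 libraries. By the same rules 5 of the 6 members were called higher and 5 did not overlap, EXL4 being the exception in both. All 6 members passed the minimum level for testing. These counts, too, only describe the members. The median log2 difference was 1.47 over the 6 members and -0.05 over all tested genes.

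**Figure D2:**
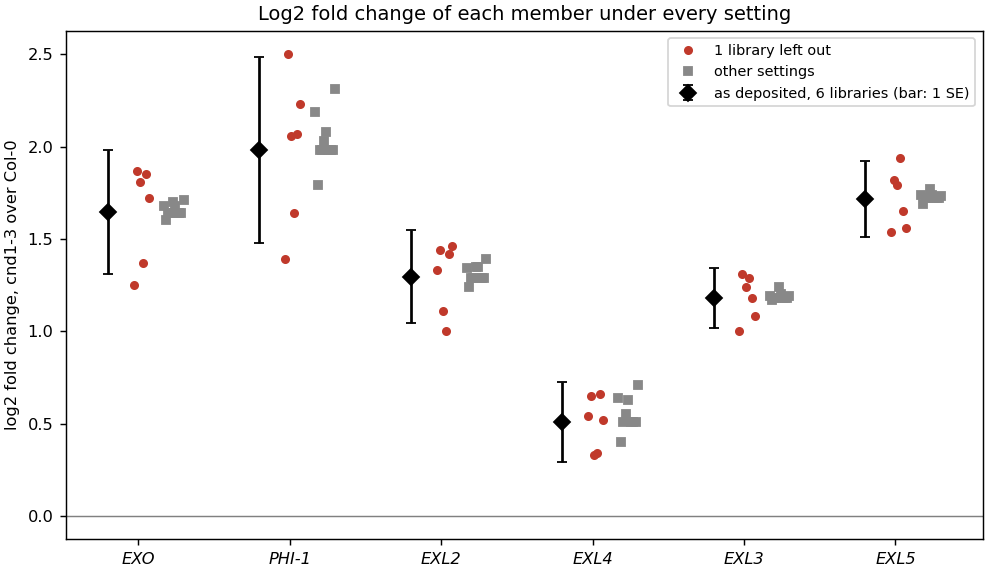
Log2 fold change (cnd1-3 over Col-0) of each EXORDIUM gene with all 6 libraries (black, bar of 1 SE), with 1 library left out (red) and under the other settings tried (grey). All points lie above 0, and PHI-1 has the widest range when a library is left out, from 1.39 without cnd1-3 replicate 1 to 2.5 without cnd1-3 replicate 2.

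The count of 5 members called was not the same in every setting, and it is again a description, since the family was chosen on this contrast. It was 4 in 7 of the 16 alternatives, PHI-1 being the member not called besides EXL4. In 3 of these all libraries were kept, with no minimum level, with eBayes without trend and with robust eBayes. The other 4 left out cnd1-3 replicate 1, cnd1-3 replicate 3, Col-0 replicate 1 or Col-0 replicate 2, where the log2 difference of PHI-1 was 1.39, 2.06, 1.64 and 2.07.

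The order of levels per length was the same in both genotypes: EXL3, EXL5, EXO, EXL2, PHI-1, EXL4. In cnd1-3 the means were 69.7, 57.0, 40.1, 20.3, 11.2 and 1.92 FPKM, and in Col-0 they were 30.1, 17.2, 11.9, 8.15, 2.07 and 1.20 FPKM. Neighbours in that order were not always separate. In cnd1-3 the libraries of EXO lay wholly above those of EXL2, and those of PHI-1 above those of EXL4, while the other 3 neighbouring pairs overlapped. In Col-0 EXL3 lay wholly above EXL5 and EXL2 above PHI-1, and the other 3 overlapped. Compared within each library, EXL3 lay above EXL5 and EXL5 above EXO in all 3 cnd1-3 libraries, and EXL2 above PHI-1 in 2. Within the Col-0 libraries, EXO lay above EXL2 and PHI-1 above EXL4 in all 3, and EXL5 above EXO in 2. EXL3 and EXL5 together made up 60.3% to 68.6% of the family's summed FPKM in the cnd1-3 libraries and 59.4% to 79.9% in the Col-0 libraries. PHI-1 made up 7.997%, 2.71% and 4.56% of it in cnd1-3 replicates 1 to 3 and 1.42%, 3.06% and 4.45% in Col-0 replicates 1 to 3. These shares of the genotypes overlap, and cnd1-3 replicate 1 holds the highest.

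The other named relatives in the annotation, EXL6 (AT3G02970) and EXL7 (AT2G35150), were hardly present. EXL6 had 0 reads in every library, which allows up to 0.105 FPKM in the cnd1-3 libraries and 0.0999 FPKM in the Col-0 libraries at a limit of 3 reads. EXL7 had 4 reads over the cnd1-3 libraries and 12 over the Col-0 libraries, and both genes lay below the minimum level for testing.

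Libraries of the same genotype differed more for these genes than for most others. This measure does not use the difference between the genotypes. The within-genotype SD of log2 FPKM plus 0.5 was 0.90 for PHI-1, larger than that of 99.7% of tested genes and of 99.8% of the 500 genes nearest in level. For EXO it was 0.60, above all 500 genes nearest in level, and for EXL2 and EXL5 it was 0.44 and 0.36, each above 98.4% of them. EXL3 had 0.27, above 95.6% of its 500 neighbours, and EXL4 had 0.32, above 81.0%.

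Counting error was a small part of that spread except in EXL4. For PHI-1 the reads alone would give an SD of 0.15, for EXO 0.06 and for EXL4 0.20. Within cnd1-3, PHI-1 had 596 reads in replicate 1 and 116 in replicate 2, a 5.10-fold difference in read share with a 95% exact counting interval of 4.17 to 6.27. For EXO the same libraries differed 2.39-fold (2.21 to 2.60), and for EXL5 1.49-fold (1.40 to 1.58). Within Col-0, PHI-1 had 86 reads in replicate 3 and 39 in replicate 1, 2.88-fold apart (1.95 to 4.33). These intervals cover counting error only.

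The pairs that are closest in sequence were also closest in how their libraries deviated. EXO and PHI-1 shared a high cnd1-3 replicate 1, at 0.79 and 1.18 above the genotype mean in log2, and a low Col-0 replicate 1, at -0.55 and -0.68. EXL3 and EXL5 shared a high cnd1-3 replicate 1, at 0.37 and 0.36, but their Col-0 replicate 1 was the highest Col-0 library, at 0.21 and 0.44. EXL2 and EXL4 instead had their highest cnd1-3 value in replicate 3, at 0.38 and 0.35, and their lowest Col-0 value in replicate 1, at -0.60 and -0.34.

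**Figure D3:**
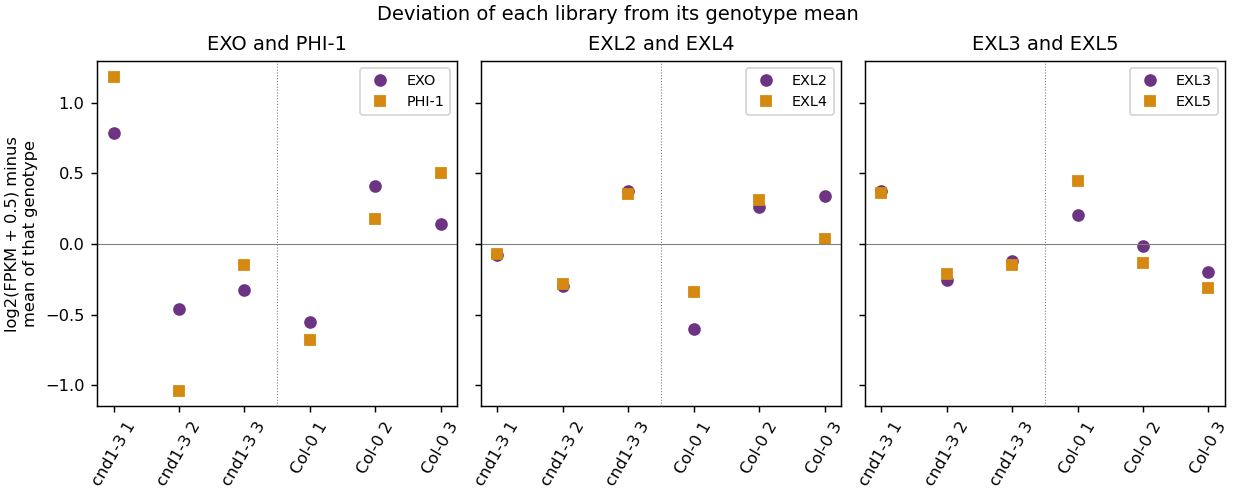
Deviation of log2(FPKM + 0.5) in each library from the mean of its genotype (vertical axis, log2) for the 3 pairs of closest relatives, with cnd1-3 libraries left of the dotted line and Col-0 libraries right of it. The points of EXL3 and EXL5 and those of EXL2 and EXL4 lie close together in the cnd1-3 libraries. They lie further apart in Col-0, most so for EXL2 (0.34) and EXL4 (0.03) in replicate 3. Col-0 replicate 1 is above 0 for EXL3 and EXL5 and below 0 for the other 4 genes.

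The likeness was measured as the root mean square difference of these deviations over the 6 libraries. It was 0.12 for EXL3 with EXL5, 0.16 for EXL2 with EXL4 and 0.35 for EXO with PHI-1, and between 0.38 and 0.75 for the other 12 of the 15 pairs. For all 6 members, the member nearest in coding sequence was the member nearest by this measure. With the difference between genotypes kept in, the same held for all 6, with values of 0.29, 0.43 and 0.39. This pattern was noticed after the values were seen and was not tested. It rested on single libraries: without cnd1-3 replicate 1, 3 of 6 members matched by deviation and 2 by the whole profile, and without Col-0 replicate 1, 5 and 3 did. Without cnd1-3 replicate 3, 5 matched by deviation and 6 by profile, and without any 1 of the other libraries all 6 matched by both. EXL3 and EXL5 were nearest to each other by deviation whichever replicate 1 was left out.

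**Figure D4:**
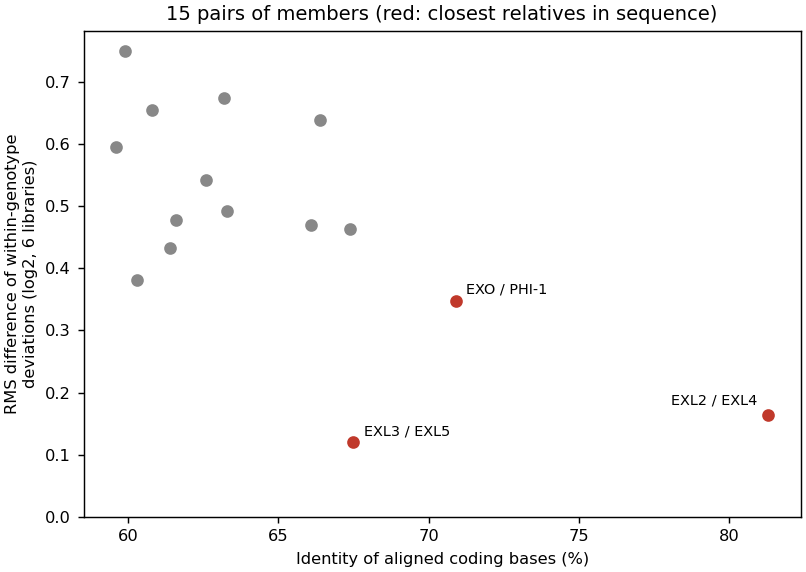
Identity of aligned coding bases in percent (horizontal axis) against the root mean square difference of within-genotype deviations in log2 over 6 libraries (vertical axis) for the 15 pairs of EXORDIUM genes. The 3 pairs of closest relatives (red) have the 3 lowest differences, at 0.12, 0.16 and 0.35. The points share the same 6 libraries and are not independent.

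Among all 17095 other tested genes, EXO ranked second in likeness to the profile of PHI-1 over the 6 libraries, each gene centred on its own mean, with a root mean square difference of 0.39. First was DREB26, a gene of the AP2/ERF transcription factors, at 0.25, with 20.0, 4.54 and 8.97 FPKM in cnd1-3, against 1.96, 2.22 and 3.24 FPKM in Col-0. The rest of the 5 most similar were the abscisic acid receptor gene PYL5 (0.48), AT3G15450 (0.49), which is a marker of carbon starvation also named SEN5, and the glucanase gene BGL2 (0.52). All of these share the pattern of a cnd1-3 replicate 1 above the other 2 cnd1-3 libraries, which follows from choosing them by likeness to PHI-1. EXL2 ranked 20, EXL5 29, EXL3 32 and EXL4 286. The difference between genotypes, on which the family was chosen, is part of this profile. High ranks of members are therefore in part fixed by that choice, and nothing is read from them.

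The 250 bases before the annotated starts of PHI-1 and EXO are shown because EXO was, after DREB26, the gene most like PHI-1 in profile. Motifs were searched on both strands. Capitals mark TTGAC, the core of the W-box bound by WRKY factors, and CGCGTT, the rapid stress response element, which is present on the reverse strand of PHI-1 and reads AACGCG here. Both sequences are from the RefSeq TAIR10.1 genome, 5′ to 3′ toward the gene.
PHI-1, chr1:12851733-12851982, plus strand: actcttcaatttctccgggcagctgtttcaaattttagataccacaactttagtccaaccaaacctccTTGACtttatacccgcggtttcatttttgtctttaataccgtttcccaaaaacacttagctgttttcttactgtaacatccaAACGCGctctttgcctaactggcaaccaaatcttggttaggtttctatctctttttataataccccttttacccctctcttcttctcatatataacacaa
EXO, chr4:5739969-5740218, plus strand: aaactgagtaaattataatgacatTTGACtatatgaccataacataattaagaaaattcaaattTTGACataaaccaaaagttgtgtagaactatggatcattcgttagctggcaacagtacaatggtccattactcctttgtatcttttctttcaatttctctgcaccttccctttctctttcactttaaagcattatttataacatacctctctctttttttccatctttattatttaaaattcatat
The W-box core lay at bases -182 to -178 from the start of PHI-1 and at -226 to -222 and -186 to -182 from that of EXO, and 44.9% of 27443 protein-coding promoters of the same length hold it. CGCGTT, in 2.59% of promoters, was found in PHI-1 and in no other member. None of the 6 held the G-box CACGTG (6.49% of promoters), the brassinosteroid response element CGTGTG (5.37%), its variant CGTGCG (1.57%), the phosphate starvation motif GNATATNC (5.46%) or the sugar-repressive element TATCCA (13.6%). EXL4 held ACGTG (22.9%), the core of abscisic acid response elements, and EXL5 held CCGAC (12%), the C-repeat. EXL2 and EXL3 held none of the 9. CACGTG contains ACGTG, so these overlap by construction. A match here is a match of letters in this window and no more.

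Low-carbon markers, the group whose conditions PHI-1 is known for, were mostly higher in cnd1-3. Of 13 tested members of a list of 15, limma called 7 higher and 0 lower (adjusted p under 0.05), with a median log2 difference of 0.52. The genes described below are the called ones with the largest changes. ASN1 (0.23), DRM1 (0.21) and DRM2 (-0.21) were among those not called. BGLU30 was at 0 in every library, and BCAT2 reached at most 0.026 FPKM. Over all tested genes the median was -0.05, with 3.5% called higher and 11.1% called in either direction. SEN5 stood at 73.1, 36.2 and 42.3 FPKM in cnd1-3, against 14.2, 19.0 and 18.6 FPKM in Col-0 (log2 difference 1.46, SE 0.23, limma adjusted p = 0.00613). DIN10, a gene of the raffinose synthase family, stood at 80.0, 47.4 and 45.5 FPKM in cnd1-3, against 20.7, 19.4 and 22.2 FPKM in Col-0 (1.40, SE 0.19, limma adjusted p = 0.00305). TPS11, a class II trehalose phosphate synthase gene, averaged 10.3 ± 1.88 FPKM in cnd1-3 and 5.69 ± 0.252 FPKM in Col-0 (0.80, SE 0.12, limma adjusted p = 0.00554; SD, n = 3 each).

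SEN1 averaged 4.27 ± 3.29 FPKM in cnd1-3 and 0.770 ± 0.652 FPKM in Col-0 (SD, n = 3 each; log2 difference 1.81, SE 0.46, limma adjusted p = 0.0402). Its highest cnd1-3 library was replicate 3, at 8.05 FPKM, unlike that of PHI-1. Summed over the list, the cnd1-3 libraries held 432, 298 and 364 FPKM, against 265, 272 and 290 FPKM in Col-0, so that replicate 1 of cnd1-3 was the highest here as it was for PHI-1, EXO, EXL3 and EXL5. The part of these genes in the EXORDIUM levels was not tested. Without Col-0 replicate 2 the list had 3 calls. SEN1 lost its call without that library (limma adjusted p = 0.134), without Col-0 replicate 1 (0.107), and without cnd1-3 replicates 2 (0.0658) or 3 (0.0718). With all libraries kept it was also lost with no minimum level (limma adjusted p = 0.0813), with eBayes without trend (0.0684) and with robust eBayes (0.0709). SEN5 and DIN10 each overlap a gene on the opposite strand.

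Expansins, the wall-loosening proteins of growing cells, were lower in cnd1-3 in 8 cases. Of 16 tested members of a list of 28, limma called 8 lower and 0 higher in cnd1-3, with a median log2 difference of -0.45, where 7.59% of all tested genes were called lower. The count of higher calls depended on the setting: it was 1 with a minimum of 2 FPKM, with voom and without cnd1-3 replicate 2. EXPA11 stood at 23.8, 23.1 and 25.7 FPKM in cnd1-3, against 55.6, 50.1 and 44.3 FPKM in Col-0 (log2 difference -1.03, SE 0.09, limma adjusted p = 0.000554). EXPA5 averaged 9.69 ± 1.09 FPKM in cnd1-3 and 21.8 ± 3.82 FPKM in Col-0 (SD, n = 3 each; -1.12, SE 0.13, limma adjusted p = 0.00169).

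EXPA8 averaged 11.1 ± 1.57 FPKM in cnd1-3 and 21.9 ± 1.59 FPKM in Col-0 (-0.96, SE 0.11, limma adjusted p = 0.00155; SD, n = 3 each). EXPA15 averaged 2.27 ± 0.294 FPKM in cnd1-3 and 6.05 ± 2.62 FPKM in Col-0 (-1.17, SE 0.24, limma adjusted p = 0.0174), a call lost without cnd1-3 replicate 1 (adjusted p = 0.0609). The list summed to 240, 229 and 222 FPKM in cnd1-3, against 325, 361 and 323 FPKM in Col-0. The groups do not overlap.

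**Figure D5:**
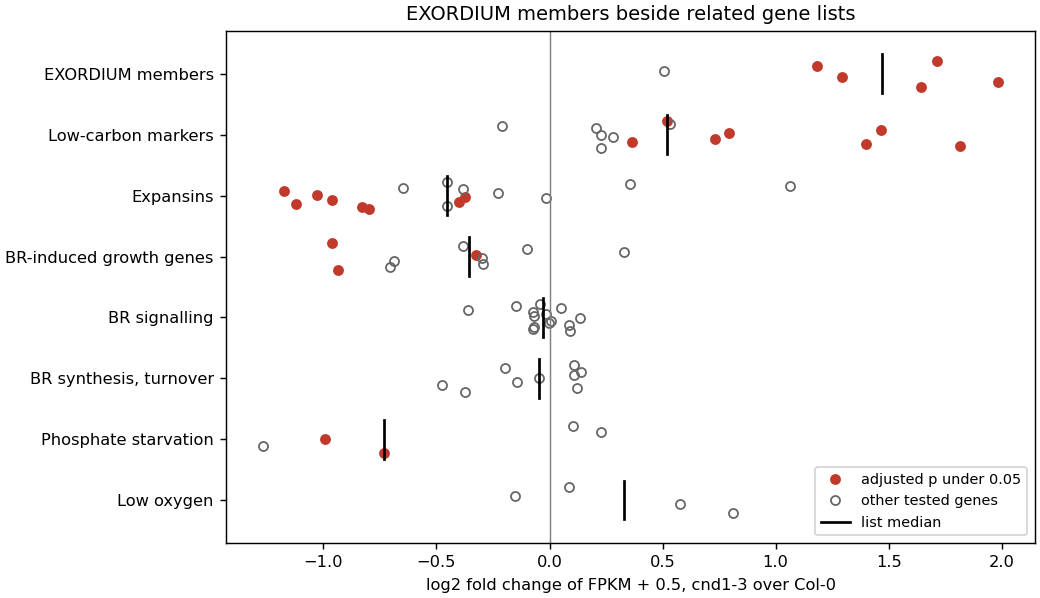
Log2 fold change of FPKM + 0.5 (cnd1-3 over Col-0, horizontal axis) of every tested gene of the EXORDIUM family and of 7 related lists (rows; BR, brassinosteroid), with called genes filled red, other tested genes open, and a bar at each list's median. EXORDIUM genes, which were chosen on this contrast, all lie to the right of 0, with a median of 1.47. So do 12 of 13 low-carbon markers, with a median of 0.52. All but 2 of 16 expansins lie to the left, with a median of -0.45.

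Within the expansin list, EXLA1, an expansin-like gene, was singled out after its values were seen. It averaged 26.3 ± 13.1 FPKM in cnd1-3 and 11.4 ± 1.57 FPKM in Col-0 (SD, n = 3 each), and was not called (limma adjusted p = 0.0519). As in EXO and PHI-1, cnd1-3 replicate 1 was the highest and replicate 2 the lowest of the mutant libraries, at 40.5 and 14.8 FPKM.

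Genes that followed EXO in earlier work on plants with raised EXO did not move in one direction. Of 4 tested, limma called 1 higher and 1 lower, where 3.5% and 7.59% of all tested genes were called higher and lower. The uncalled KCS1 and WAK1 had log2 differences of -0.32 and -0.14, so that only 1 of the 4 was above 0. With a replicate block 1 was called higher and 2 lower. The aquaporin gene TIP2-1 had 359, 377 and 360.5 FPKM in cnd1-3, against 304, 299 and 296 FPKM in Col-0 (log2 difference 0.29, SE 0.06, limma adjusted p = 0.0189). EXPA5, given above, was lower. TIP2-1 overlaps genes on the opposite strand, and its call was lost without cnd1-3 replicate 1 (adjusted p = 0.0687), cnd1-3 replicate 2 (0.0808) or Col-0 replicate 2 (0.0523).

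Genes of brassinosteroid synthesis and turnover (9 tested) and of brassinosteroid signalling (14 tested) had 0 calls by limma, with 2 and 1 genes at an unadjusted p under 0.05, and 0 calls by limma-voom on recovered reads. Over all tested genes limma called 11.1% in either direction, so 0 calls in lists this short lies near the background. DWF1, an enzyme gene of sterol side-chain reduction, averaged 117 ± 7.59 FPKM in cnd1-3 and 107 ± 12.9 FPKM in Col-0 (SD, n = 3 each; limma adjusted p = 0.372). CPD, which hormone feedback is known to repress, averaged 60.3 ± 2.34 FPKM in cnd1-3 and 55.3 ± 1.88 FPKM in Col-0 (adjusted p = 0.25). The signalling kinase gene BIL1 stood at 60.3 ± 2.38 FPKM in cnd1-3 and 55.0 ± 4.34 FPKM in Col-0 (adjusted p = 0.287), and the transcription factor gene BES1 at 44.0 ± 3.53 FPKM in cnd1-3 and 46.3 ± 2.86 FPKM in Col-0 (adjusted p = 0.597). The median log2 differences of these lists, -0.05 and -0.03, lay near that of all tested genes, and with quantile normalization they were 0.09 and 0.04. CPD, BIL1 and BES1 each overlap a gene on the opposite strand and DWF1 one on its own strand, so that reads of the overlap may belong to either.

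Another list was drawn up as growth genes induced by brassinosteroids, as EXO is. It also holds IBH1, a growth inhibitor that does not belong under that name, at a log2 difference of -0.38 and not called. Of 10 tested genes of the list, limma called 3 lower and 0 higher, where 7.59% of all tested genes were called lower. The median log2 difference, IBH1 included, was -0.35. With quantile normalization 1 gene was called higher beside 3 lower. Besides EXPA8, the genes called lower were PRE1, a gene of small helix-loop-helix growth regulators, and BEE2, a gene of helix-loop-helix factors. PRE1 averaged 1.65 ± 0.358 FPKM in cnd1-3 and 3.57 ± 0.0954 FPKM in Col-0 (log2 difference -0.93, SE 0.14, limma adjusted p = 0.00424; SD, n = 3 each). BEE2 averaged 38.9 ± 1.7 FPKM in cnd1-3 and 49.0 ± 3.48 FPKM in Col-0 (-0.33, SE 0.07, adjusted p = 0.0266). Of these 10 genes, IBH1 included, 1 had a log2 difference above 0. All 6 EXORDIUM genes did, but they were chosen on this contrast, so nothing is read from setting them beside the list. The difference between these groups of genes was not tested. The BEE2 call was lost without each library but Col-0 replicate 3, at adjusted p of 0.052 to 0.097, and with eBayes without trend (0.057).

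Phosphate starvation markers, the genes of the nutrient that gave PHI-1 its name, were called lower in 2 of 5 tested members of a list of 11, with 0 higher, where 7.59% of all tested genes were called lower. The tested genes did not all move in one direction. SQD2 and PHF1 were not called, with log2 differences above 0 (0.23 and 0.10), and neither was AT4 (-1.27). Without Col-0 replicate 3 the counts were 1 lower and 1 higher. SPX1, a phosphate-sensing regulator, averaged 6.34 ± 0.870 FPKM in cnd1-3 and 10.9 ± 2.17 FPKM in Col-0 (log2 difference -0.73, SE 0.15, limma adjusted p = 0.0161; SD, n = 3 each), and lost its call without cnd1-3 replicate 1 (adjusted p = 0.0527). The acid phosphatase gene PAP17 averaged 1.34 ± 0.224 FPKM in cnd1-3 and 3.34 ± 1.47 FPKM in Col-0 (-0.99, SE 0.27, adjusted p = 0.0486). PAP17 also overlaps a gene on the opposite strand, and its call was lost without any 1 library except Col-0 replicate 1.

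Low-oxygen markers had 0 of 4 tested genes called by limma and by limma-voom, with 2 at an unadjusted p under 0.05 in limma. With 11.1% of all tested genes called in either direction, 0 calls among 4 genes lies near the background. The sucrose synthase gene SUS1 averaged 13.8 ± 3.31 FPKM in cnd1-3 and 9.30 ± 3.63 FPKM in Col-0 (SD, n = 3 each; limma adjusted p = 0.157), and ADH1 averaged 2.24 ± 1.24 FPKM in cnd1-3 and 0.960 ± 0.141 FPKM in Col-0 (adjusted p = 0.113). ADH1 overlaps a gene on the opposite strand. Both were highest in replicate 3 of each genotype, and not in the cnd1-3 replicate 1 that was highest for PHI-1.

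Among shoot markers, limma called 2 of 8 tested genes, both lower, against 7.59% of all tested genes. The list did not move in one direction: 3 of the 8 had a log2 difference above 0. These were RBCS1A (0.13), CA1 (0.14) and GLDP1 (0.18), none of them called. The uncalled FAMA (-0.38), TMM (-0.18) and MYB60 (-0.31) lay below 0. LHCB1-1, a light-harvesting gene with near-identical copies between which reads may be split, averaged 1532 ± 254 FPKM in cnd1-3 and 3569 ± 804 FPKM in Col-0 (limma adjusted p = 0.00373; SD, n = 3 each). KAT1, a guard cell potassium channel gene, averaged 6.08 ± 0.328 FPKM in cnd1-3 and 10.0 ± 1.74 FPKM in Col-0 (adjusted p = 0.0114). The part of tissue makeup in the EXORDIUM values was not tested.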

How the data were processed

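Messenger RNA of 3 cnd1-3 and 3 Col-0 seedling samples, grouped by the genotype in the labels, was sequenced as read pairs. The authors deposited FPKM per gene. Tools named in the submitters' processing notes are DESeq2, featureCounts, HISAT2 and Subread, with the build TAIR10, while their roles, versions and the strandedness were not stated. Reads were recovered from FPKM and TAIR10.1 exon lengths, and 99.34% to 99.37% of values were whole within 0.01. Depth was 22125814 to 30455907 reads.

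limma 3.58.1 (R 4.3.3, eBayes with trend) was fitted to log2 of FPKM plus 0.5, which draws low genes toward 0, for the 17096 genes with a mean of at least 0.5 FPKM. P-values were Benjamini-Hochberg adjusted over these, with a threshold of 0.05. The fit was run on simulated data in which every gene had the same spread between libraries beyond counting error. The members spread more than most genes, so that run does not show how the fit behaves for them. Coding sequences were aligned in pairs with Biopython 1.88 and jointly with MAFFT 7.526. Python 3.11.15 was used.

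Members and lists were chosen with earlier results of these data known. Named genes were all members, up to 4 called genes per list by size of change (or the 2 most abundant where none was called), and the 5 most like PHI-1. Alternatives were pseudocounts of 0.1 and 1, no minimum or 2 FPKM, median-ratio and quantile scaling, eBayes without trend or robust, a replicate block, voom on recovered reads and leaving out each library. Those for likeness between relatives were chosen after seeing the data. Protein sequences were not used here.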

Additional observations from a re-analysis of the deposited data

How the results depend on the processing

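The log2 differences of the 6 members stayed above 0 in every alternative in which they were fitted. With a minimum of 2 FPKM 5 members were tested, and EXL4 has no value there. Without 1 library they ranged from 1.25 to 1.87 for EXO, 1.39 to 2.5 for PHI-1, 1.00 to 1.46 for EXL2, 1.00 to 1.31 for EXL3, 0.33 to 0.66 for EXL4 and 1.54 to 1.94 for EXL5. The number of genes called, 1896 with all libraries, was 908, 1018 and 1154 without cnd1-3 replicates 1, 2 and 3, 906 without Col-0 replicate 2, and 1308 and 1837 without Col-0 replicates 1 and 3. Replicate numbers matched in part across the genotypes: same-numbered deviations correlated at 0.032, 0.157 and 0.263. For cnd1-3 replicates 2 and 3 this was the highest correlation with any Col-0 library. The deviations of cnd1-3 replicate 1 correlated best with Col-0 replicate 2 (0.085). Whether same-numbered samples share a batch is not in the labels and was not tested. With a replicate block 2879 genes were called. Among them were 5 of the list drawn up as brassinosteroid-induced, 1 brassinosteroid signalling gene and 2 low-oxygen markers, against 3, 0 and 0. Under the block 2 expansins were called higher and 10 lower. Phosphate markers had 1 call in place of 2 with pseudocount 1, no minimum level, quantile normalization, eBayes without trend, robust eBayes or voom, where PAP17 lost its call, and low-oxygen markers had 1 with no minimum level. Without 1 library, calls ranged from 1 to 2 for genes that follow EXO, 3 to 7 for low-carbon, 0 to 2 for phosphate, 0 to 1 for low-oxygen and 0 to 1 for root markers, and members nearest their closest relative from 2 to 6 by profile and 3 to 6 by deviation. The causes of these changes were not tested. At 38 to 89 reads, EXL4 has the widest counting error of the members.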
